A study of Mus musculus with 37 samples.

Results

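The cell cycle and proliferation genes described here are 41 known genes of the cell cycle, taken by symbol with no threshold on their measured values. These genes, and the lists of related genes used below, were chosen with earlier results of these data known. All 41 were found among the 24421 gene rows of every count table, and all 41 passed the filter on low counts. They comprise 11 replication genes, 5 genes that govern entry into S phase (Ccnd1, Ccne1, Ccne2, E2f1 and Cdkn1a) and 25 mitotic genes, and these classes are kept apart. The genes were measured by RNA sequencing in the livers of 37 C57BL/6 mice aged 2 months, with 1 library per mouse. The mice were wild type (WT; 6 males and 6 females) or carried the substitution Y665F (9 males and 6 females) or Y665H (4 males and 6 females) of STAT5B. STAT5B is a transcription factor downstream of growth hormone and cytokine receptors, and the substitutions change a tyrosine of its SH2 domain to phenylalanine or histidine. No other allele or treatment is named in the labels for any group, and whether 1 or both alleles were altered is not given in the sources used here. The labels name no promoter or cell type that would restrict the change to some cells. Each substitution was compared with WT of the same sex, the substitutions were compared with each other, and the effects were compared between the sexes.

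Cells that divide copy their DNA in S phase and separate the copies in mitosis. Replication genes load and drive the MCM helicase, clamp the polymerase and supply nucleotides, and many of them are switched on by E2F factors at the end of G1. Mitotic genes are held down in resting cells by the DREAM complex and are switched on later by B-MYB and FOXM1, through a promoter element called CHR that often lies beside CCAAT boxes. Adult hepatocytes mostly rest outside the cycle and return to it after loss of tissue, when cyclin D1 is an early induced gene, while immune cells in the liver can also divide.

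The promoters are shown first because they carry the elements named above, by which both classes are known to be controlled. RefSeq promoter windows on build GRCm38.p6, from 250 bases before to 50 bases after the start of transcription, were found for 33 of the 41 genes. Each window was searched on both strands for 4 motifs. The CHR was taken as TTTGAA. The CCAAT box was searched by its own letters. E2F sites were taken as TTTCCCGC or as TTTGGCGC or as TTTCGCGC, and such sites can overlap on opposite strands. The STAT site was taken as TTCNNNGAA. Capitals mark every match, on either strand. The first 3 sequences belong to mitotic genes and hold CHR and CCAAT (Cdc20 at chr4:118437294-118437593, minus strand; Top2a at chr11:99024140-99024439, minus strand; Plk1 at chr7:122159185-122159484, plus strand). The next 2 belong to replication genes and hold E2F sites (Mcm6 at chr1:128359656-128359955, minus strand; Mcm5 at chr8:75109259-75109558, plus strand). The last is the mitotic gene Birc5, shown as a window with no match (chr11:117848987-117849286, plus strand). Nusap1, a mitotic gene that rose in Y665F males, has no match in its window either.
Cdc20: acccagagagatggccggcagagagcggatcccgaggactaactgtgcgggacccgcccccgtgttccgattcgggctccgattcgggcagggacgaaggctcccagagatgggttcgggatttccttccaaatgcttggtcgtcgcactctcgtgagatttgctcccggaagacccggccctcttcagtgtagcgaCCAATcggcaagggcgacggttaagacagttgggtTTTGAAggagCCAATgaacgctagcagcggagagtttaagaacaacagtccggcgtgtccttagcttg
Top2a: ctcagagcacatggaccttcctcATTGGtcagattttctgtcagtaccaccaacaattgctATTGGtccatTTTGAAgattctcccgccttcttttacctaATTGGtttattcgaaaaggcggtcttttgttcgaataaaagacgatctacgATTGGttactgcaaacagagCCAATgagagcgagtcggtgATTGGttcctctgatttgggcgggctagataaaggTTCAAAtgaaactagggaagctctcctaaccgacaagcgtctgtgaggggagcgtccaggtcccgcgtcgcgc
Plk1: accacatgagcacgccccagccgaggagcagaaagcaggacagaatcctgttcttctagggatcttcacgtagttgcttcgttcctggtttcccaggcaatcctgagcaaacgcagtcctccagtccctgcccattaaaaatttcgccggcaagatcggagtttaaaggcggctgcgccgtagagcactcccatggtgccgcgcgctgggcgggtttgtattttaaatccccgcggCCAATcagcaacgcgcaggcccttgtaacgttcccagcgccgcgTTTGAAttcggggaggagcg
Mcm6: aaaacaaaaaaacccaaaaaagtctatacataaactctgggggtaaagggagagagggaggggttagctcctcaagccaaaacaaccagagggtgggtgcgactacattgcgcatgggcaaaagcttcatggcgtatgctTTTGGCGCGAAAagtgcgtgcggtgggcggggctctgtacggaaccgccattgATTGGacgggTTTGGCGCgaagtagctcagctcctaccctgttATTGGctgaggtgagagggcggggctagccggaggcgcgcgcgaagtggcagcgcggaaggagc
Mcm5: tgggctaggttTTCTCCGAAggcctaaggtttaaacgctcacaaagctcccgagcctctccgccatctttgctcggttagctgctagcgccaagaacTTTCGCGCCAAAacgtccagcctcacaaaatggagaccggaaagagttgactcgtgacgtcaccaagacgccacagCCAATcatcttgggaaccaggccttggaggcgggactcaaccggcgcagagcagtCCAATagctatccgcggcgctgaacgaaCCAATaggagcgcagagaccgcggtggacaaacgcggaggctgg
Birc5: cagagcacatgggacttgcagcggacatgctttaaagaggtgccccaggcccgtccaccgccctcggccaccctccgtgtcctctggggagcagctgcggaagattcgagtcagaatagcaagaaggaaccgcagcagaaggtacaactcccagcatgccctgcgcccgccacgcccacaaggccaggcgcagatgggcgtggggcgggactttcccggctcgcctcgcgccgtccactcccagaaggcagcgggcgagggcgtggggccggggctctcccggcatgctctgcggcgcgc

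CHR was present in 15 of the 20 mitotic promoters with a window (75.0%), against 20.23% of the 27025 genes with a promoter in the RefSeq table. CCAAT was present in 18 of 20 mitotic promoters (90.0%), against 41.06% of all genes. Both were present together in 15 of 20 (75.0%), against 8.97% of all genes. The 5 mitotic promoters without CHR were those of Nusap1, Bub1, Cenpe, Birc5 and Ccnb1. An E2F site was present in 6 of 10 replication promoters (60.0%), those of Mcm3, Mcm5, Mcm6, Mcm7, Cdt1 and Cdc6, against 2.12% of all genes and 5.0% of the mitotic promoters, where Cdk1 was the gene with a site. The STAT site was present in 1 of the 33 promoters, that of Mcm5, which is 3.03% against 9.55% of all genes. These are matches of letters in a short window and say nothing of whether a factor bound there.

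Male libraries held 49141951 to 73937726 counts in genes and female libraries 24388434 to 40864173, so depth differed by sex. Levels below are counts scaled to a library of fixed size, abbreviated CPM, after correction of library sizes for composition. The cell cycle genes were scarce at this depth: Mki67 had 36 to 1679 counts in a library and Cdc6 had 2 to 45, so single-library values of the lowest genes carry large counting error. The share of counted items that fell in no annotated gene was highest in WT males (17.3% to 19.8%) and Y665F males (13.9% to 19.9%). It was 11.9% to 15.9% in Y665H males and 12.3% to 15.8% in Y665F females. WT females had 9.59% to 14.7%, and Y665H females had 7.21% to 15.3%. Stat5b RNA lay between 72.5 and 114 CPM in all 37 libraries, which does not test the substitution, since counts per gene do not show a changed base. The hepatocyte gene Alb was the most abundant of the hepatocyte markers in every group, with 55557 CPM on average in WT males. The labels do not say whether replicate livers shared litters or days, so the tests take the mice as independent. Each p-value sets a difference against a spread between mice estimated over all 37 libraries, including groups outside the comparison. One library, Y665H female 3, stood apart: it was the highest of all 37 libraries for 31 of the 41 genes, against 6.67% of the 15152 genes tested. Results that rest on it are given with and without it.

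In WT livers the level per kilobase of exon differed widely between the genes. Pcna, the sliding clamp of the DNA polymerases, had 8.21 CPM per kilobase in males and 9.37 in females. Ccnd1, cyclin D1, had 3.43 CPM per kilobase in males and 39.5 in females. In males Mcm7 followed with 2.82 (2.52 in females), and then Rrm2, the small subunit of ribonucleotide reductase, with 1.94 (1.25 in females). In females Mcm3 (1.43), Cdt1 (1.33) and Mcm4 (1.26) lay above Rrm2. The mitotic genes were lower than Pcna, Ccnd1, Mcm7 and Rrm2 in both sexes. Mki67, which encodes the Ki-67 protein, had 0.306 in males and 0.469 in females, and Bub1, a spindle checkpoint kinase, had 0.0316 and 0.0389. The replication gene Cdc6 was also low, with 0.0421 and 0.0677. Of the mitotic genes, Aurka was the highest in both sexes with 1.17 and 1.19.

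In Y665F males most mitotic genes rose. Of 25 mitotic genes, 22 were higher than in WT males, 1 was lower (Birc5) and 2 did not pass the test (Ccnb2 and Aurka). Calls rest on edgeR's quasi-likelihood test, with p-values adjusted by Benjamini-Hochberg over all 15152 genes and a threshold of 0.05. Over the whole set of 41, 30 were higher and 2 were lower, where 27.2% of all genes tested were higher and 25.3% were lower. The median log2 fold change was 1.30 for the mitotic genes, 0.37 for the replication genes and -0.0076 for all genes tested. In 17 of the 41 genes every Y665F male lay above every WT male, against 14.2% of all genes, and in none did every Y665F male lie below, against 12.2% of all genes. In whole liver RNA, more or fewer cells of a type and more or less RNA per cell cannot be told apart. With the share of items in no gene as a covariate, 20 of the 41 genes were called, 19 higher and 1 lower. The percentages of all genes above are from the fit without that covariate, and those with it are not given here.

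Mki67 had the largest rise of the 41 genes in Y665F males. Its level was 2.03, 2.47 and 4.84 CPM (lowest, median and highest) in WT males and 12.2, 17.8 and 23.2 CPM in Y665F males. The means were 3.08 CPM ± 1.22 (SD, n = 6) and 17.3 CPM ± 3.37 (SD, n = 9), a 5.63-fold difference (log2 2.49, SE 0.29, edgeR adjusted p = 5.17e-09). All 9 Y665F males were above all 6 WT males, and the gap between the groups was wider than the range within WT.

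Ccnb1 encodes cyclin B1, which activates Cdk1 at the start of mitosis. It had 0.127, 0.209 and 0.476 CPM in WT males and 0.525, 0.812 and 2.42 CPM in Y665F males (log2 2.03, SE 0.505, edgeR adjusted p = 0.000972). Top2a, the topoisomerase that untangles sister chromatids, had 1.17, 1.35 and 2.67 CPM in WT males and 3.39, 4.97 and 7.02 CPM in Y665F males (log2 1.60, SE 0.30, edgeR adjusted p = 3.55e-05). For both genes the groups did not overlap, and the margin was narrow for Ccnb1. Plk1, a kinase of mitotic entry and spindle assembly, had 0.175, 0.334 and 0.376 CPM in WT males and 0.648, 0.984 and 1.37 CPM in Y665F males (log2 1.63, SE 0.32, edgeR adjusted p = 5.50e-05). Cdc20, which activates the anaphase-promoting complex, had 0.476, 0.591 and 1.03 CPM in WT males and 1.06, 2.02 and 4.81 CPM in Y665F males (log2 1.62, SE 0.43, edgeR adjusted p = 0.00180). The promoters of these last 2 genes and of Top2a are printed above with their CHR and CCAAT matches. The library Y665F male 8 held the highest Cdc20 value and was the highest of its group for 18 of the 41 genes. Without it, 30 genes were higher and 2 lower, as with it.

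The other mitotic genes that rose in Y665F males had log2 fold changes from 0.59 for Nusap1 to 1.63 for Tpx2, both microtubule-binding proteins of the spindle. The call of Kif20a was lost in 4 of 15 fits that left out 1 library, and those of Nusap1 and Cdca8 in 1 each. The kinetochore and checkpoint genes Bub1, Cenpf, Cenpe and Bub1b rose by log2 1.62, 1.32, 1.30 and 0.88. The kinesins of the spindle and midzone, Kif23, Kif20a and Kif11, rose by 1.00, 0.66 and 0.60, and their partner Prc1, which bundles midzone microtubules, by 1.05. Ccna2 (cyclin A2) rose by 1.34, Foxm1, the transcription factor of the mitotic program, by 1.31, and Cdk1 by 0.83. Ube2c, the ubiquitin-conjugating enzyme of the anaphase-promoting complex, rose by 1.36. Several of these genes share exon bases with a gene on the opposite strand, and the strand setting of the counting is not given in the sources used here: Kif20a with Cdc23 (29.3% of its exon bases), Ube2c with Tnnc2 (22.77%), Ccna2 with Exosc9 (12.49%) and Prc1 with Rccd1 (11.08%). Their values may hold reads of those partners. The genes without a call were Ccnb2 at log2 0.72 (SE 0.41, edgeR adjusted p = 0.134) and Aurka at 0.04 (SE 0.14, edgeR adjusted p = 0.811).

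Birc5 encodes survivin, which works in the chromosomal passenger complex together with Aurkb and Cdca8. Its level was 1.16, 1.49 and 1.70 CPM in WT males and 0.629, 0.964 and 1.32 CPM in Y665F males. The log2 fold change was -0.61 (SE 0.21, edgeR adjusted p = 0.0127), and the groups overlapped. Its complex partners Aurkb and Cdca8 rose by log2 1.48 and 0.59 in the same libraries. Birc5 was therefore lower in livers where 22 other mitotic genes were higher.

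**Figure D1:**
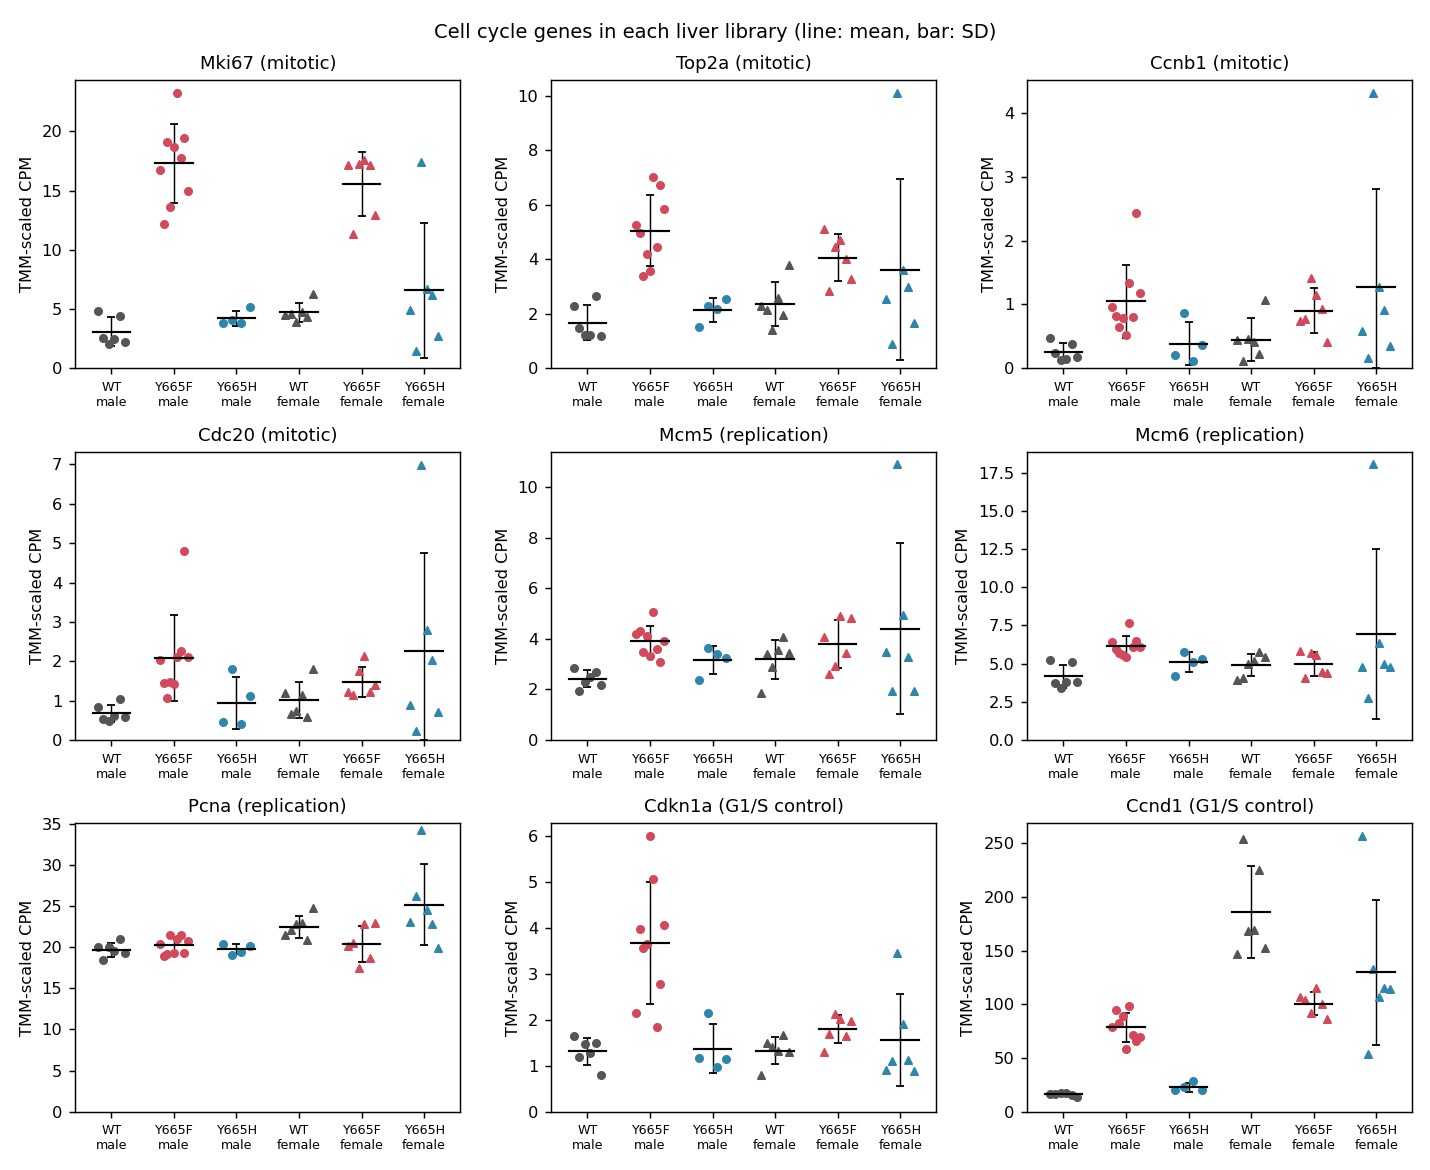
CPM of 9 of the genes in every liver library, on a linear axis from 0; circles are males, triangles are females, the wide line is the mean and the bar is 1 SD (bars that would pass below 0 end at the axis). The 9 Y665F males lie between 12.2 and 23.2 CPM of Mki67 and the 6 WT males between 2.03 and 4.84; in the Y665H females 1 triangle, replicate 3, lies far above the other 5 for the mitotic genes and for Mcm5 and Mcm6.

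Of the 11 replication genes in Y665F males, 6 were higher (54.5%), none was lower and 5 did not pass. Of all genes tested, 27.2% were higher and 25.3% were lower. Whether they differed from the mitotic genes as a class was not tested. Of the 6 subunits of the MCM helicase, Mcm2, Mcm3, Mcm5 and Mcm6 rose by log2 0.48, 0.48, 0.69 and 0.56, while Mcm4 (0.26, edgeR adjusted p = 0.0607) and Mcm7 (0.10, edgeR adjusted p = 0.349) did not pass. Both loaders of that helicase rose, Cdc6 by 1.09 (SE 0.26, edgeR adjusted p = 0.000716) and Cdt1 by 0.37 (SE 0.12, edgeR adjusted p = 0.00826). Mcm5, whose promoter with 2 overlapping E2F matches is printed above, had 1.94, 2.41 and 2.86 CPM in WT males and 3.08, 3.92 and 5.07 CPM in Y665F males, with no overlap. Cdc6 had 0.148, 0.213 and 0.353 CPM in WT males and 0.339, 0.441 and 0.679 CPM in Y665F males, with overlap at the edge.

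The genes for the clamp and for nucleotide supply did not pass the test in Y665F males. Pcna had 18.4, 19.8 and 21.0 CPM in WT males and 19.0, 20.4 and 21.5 CPM in Y665F males (log2 0.04, SE 0.07, edgeR adjusted p = 0.677). Tyms, thymidylate synthase, changed by log2 0.05 (SE 0.08, edgeR adjusted p = 0.588). Rrm2 had 3.90, 5.61 and 6.83 CPM in WT males and 3.40, 4.16 and 4.64 CPM in Y665F males (log2 -0.38, SE 0.18, edgeR adjusted p = 0.0769). Pcna, the most abundant replication gene per kilobase, thus had nearly the same range in both groups while Mki67 did not overlap. The call of Mcm6 was lost in 4 of the 15 fits that left out 1 library.

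**Figure D2:**
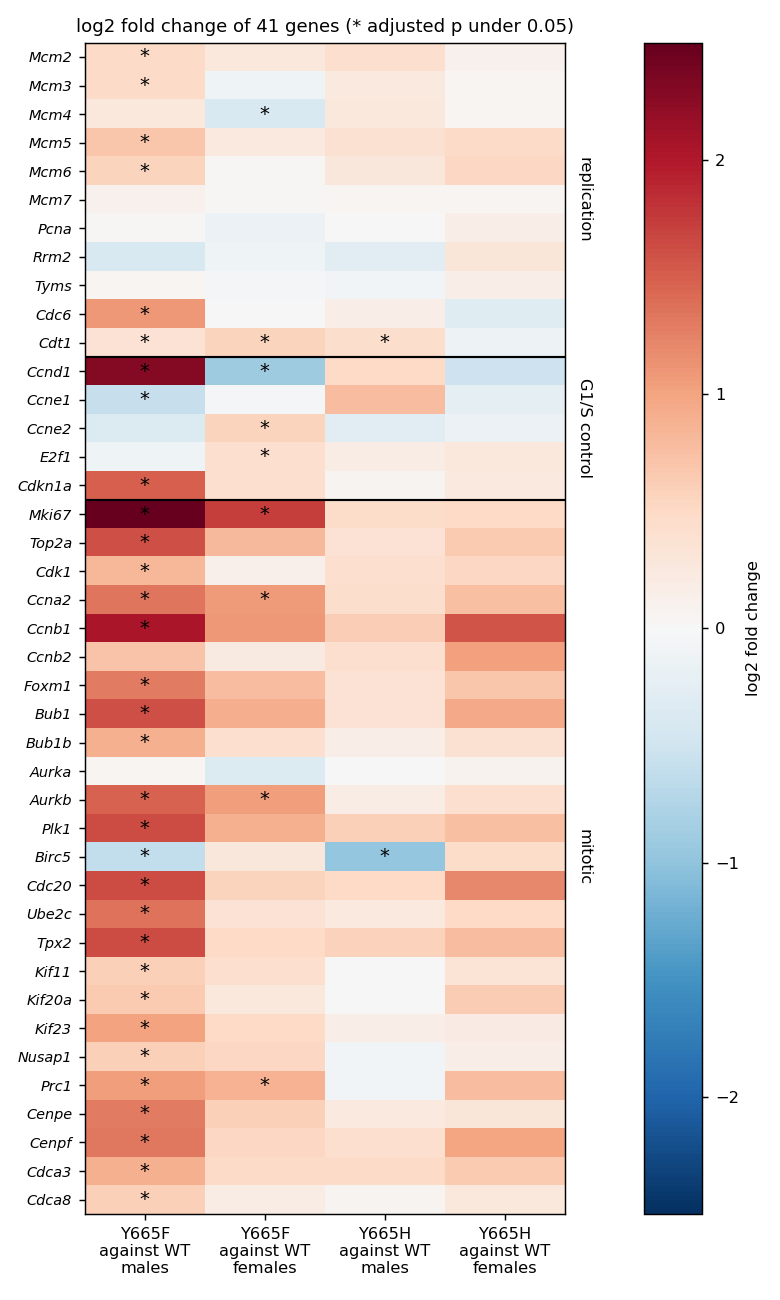
Log2 fold change of the 41 genes (rows, in replication, G1/S control and mitotic blocks) in each comparison of a substitution with WT of the same sex (columns); red is higher than WT, blue is lower, and a star marks an adjusted p under 0.05. The Y665F male column has 32 stars, 30 of them red, the Y665F female column 9, the Y665H male column 2 and the Y665H female column none.

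The genes that govern entry into S phase moved in both directions in Y665F males. Ccnd1 encodes cyclin D1, which ties growth signals to the cell cycle engine. It had 13.4, 16.5 and 17.7 CPM in WT males and 58.4, 78.8 and 98.2 CPM in Y665F males, a 4.88-fold difference (log2 2.29, SE 0.20, edgeR adjusted p = 5.15e-12). The groups were far apart. Ccnd1 shares 23.36% of its exon bases with LTO1 on the opposite strand, so its reads may include that gene's. Cdkn1a encodes p21, an inhibitor of cyclin-dependent kinases. It had 0.809, 1.38 and 1.64 CPM in WT males and 1.85, 3.64 and 6.00 CPM in Y665F males (log2 1.49, SE 0.25, edgeR adjusted p = 6.74e-06), without overlap. Ccne1 (cyclin E1) was lower, with 0.459, 0.547 and 0.836 CPM in WT males and 0.197, 0.457 and 0.596 CPM in Y665F males (log2 -0.58, SE 0.24, edgeR adjusted p = 0.0389), and its call was lost in 5 of 15 fits that left out 1 library. Ccne2 (-0.34, edgeR adjusted p = 0.0921) and E2f1 (-0.10, edgeR adjusted p = 0.502) did not pass. An activator of the G1 step, Ccnd1, and an inhibitor, Cdkn1a, were thus both higher in the same livers.

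Related genes outside the set were counted from lists of the same pathways, beside the 27.2% higher and 25.3% lower of all genes tested. In Y665F males, 31 of 49 other mitotic genes were higher (63.3%) and 5 were lower (10.2%), with a median log2 fold change of 0.74. Among them Hmmr, a spindle protein, rose by log2 1.81 and Ckap2l, a spindle protein, by 1.76, while Ccnf (cyclin F) had 19.3 CPM ± 3.00 (SD, n = 6) in WT males and fell to 8.46 CPM ± 2.64 (SD, n = 9), a log2 change of -1.19. Of 39 other replication genes, 16 were higher (41%) and 5 were lower (12.8%), with a median of 0.15. Uhrf1, which directs maintenance methylation behind the fork, rose by 1.53 and Lig1, the ligase that joins Okazaki fragments, by 1.23. Mcm10, which helps to start the helicase, had 87.5 CPM ± 16.2 (SD, n = 6) in WT males and fell to 20.8 CPM ± 2.94 (SD, n = 9), a log2 change of -2.07 (SE 0.10, edgeR adjusted p = 4.38e-18). Of 29 other cyclin, kinase, inhibitor and E2F genes, 9 were higher (31.0%) and 10 were lower (34.5%), shares near those of all genes. The inhibitors Cdkn1c (p57) and Cdkn2c (p18) rose by 1.30 and 1.17. Of 18 other p53 target genes, 8 were higher (44.4%) and 1 was lower (Mdm2, -0.16), with Eda2r at 1.47 and Pmaip1 at 1.21, and their median was 0.18.

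Markers of other cell types rose in the same Y665F male livers. Of the T and NK cell markers, 10 of 11 were higher, and their summed level was 3.33 to 5.94 CPM in WT males and 9.52 to 23.2 CPM in Y665F males. Of the B and plasma cell markers, 7 of 7 were higher, with sums of 2.89 to 4.77 CPM and 14.5 to 25.9 CPM. Of the macrophage and monocyte markers, 10 of 10 were higher, with sums of 173 to 261 CPM and 281 to 671 CPM. None of these lists overlapped between the groups. Of the neutrophil and granulocyte precursor markers, 8 of 10 tested were higher, with sums of 0.603 to 1.28 CPM and 2.75 to 57.5 CPM, the latter in Y665F male 2, and Ctsg was at 0 counts in every WT male. Megakaryocyte markers were higher in 6 of 6 (4.53 to 5.69 CPM against 6.43 to 11.3 CPM) and stellate cell and fibroblast markers in 8 of 10 (362 to 433 CPM against 465 to 677 CPM). Of the erythroid markers, none of 6 tested was higher and 3 were lower, with sums of 144 to 159 CPM against 28.7 to 41.3 CPM, and the globin genes Hba-a2, Hbb-bs and Hbb-bt were at 0 counts in every library of every group, WT males included. Hba-a1 was at 0 in every group except WT males, where its highest value was 0.0328 CPM. Cholangiocyte markers were higher in 2 of 6 and lower in 2 of 6, and endothelial markers were higher in 1 of 7. Of the hepatocyte markers 1 of 9 was higher (Alb) and 5 were lower, with sums of 91003 to 100344 CPM and 133990 to 150446 CPM. The part of any of these cell types in the cell cycle values was not tested.

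**Figure D3:**
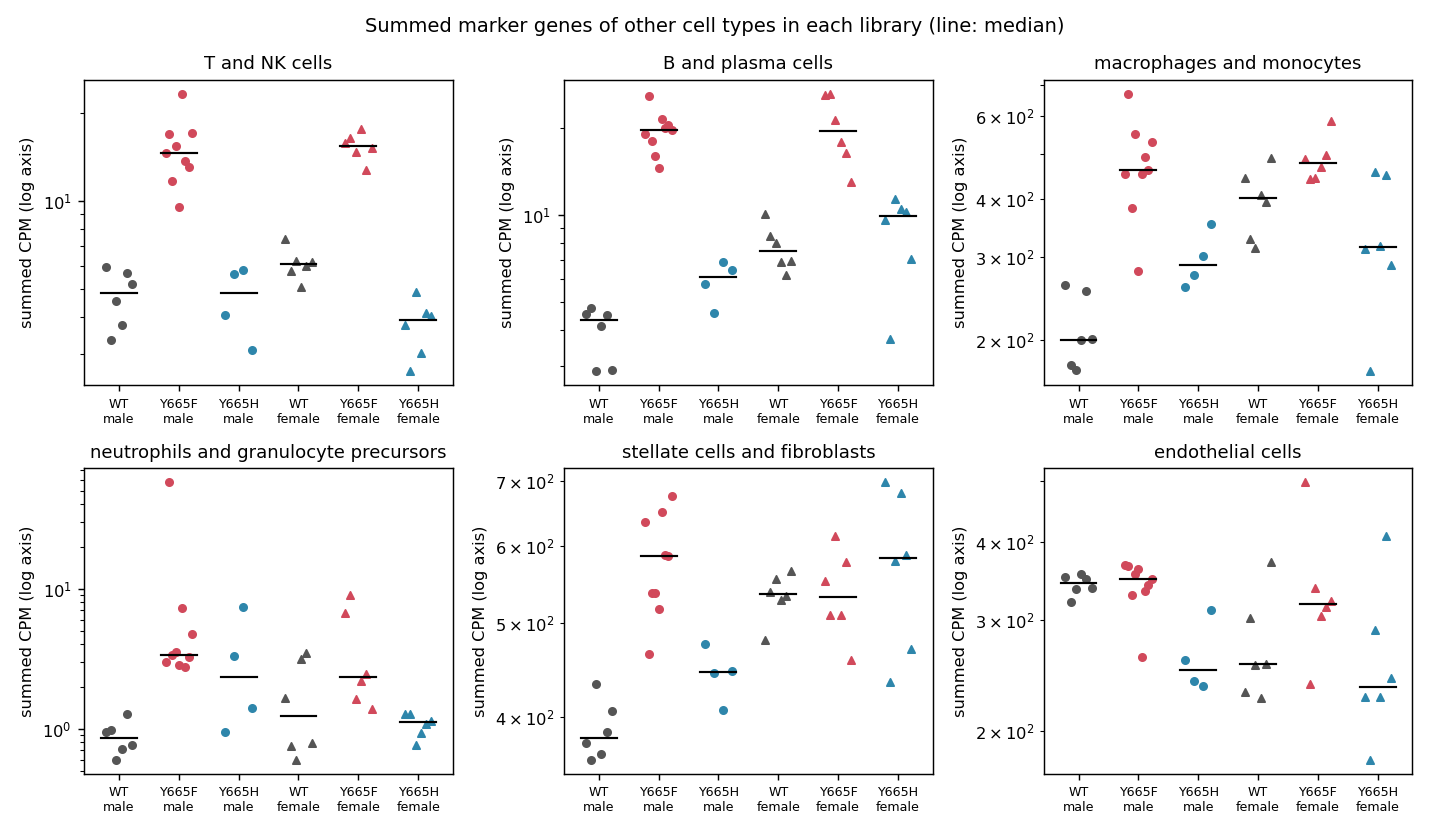
Summed CPM of marker genes of 6 cell types in every liver library, on log axes, with a line at the group median; circles are males and triangles are females. The T and NK cell sum was 9.52 to 23.2 CPM in Y665F males and 12.7 to 17.6 CPM in Y665F females, above every WT library of the same sex, and 2.61 to 4.87 CPM in Y665H females.

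In Y665F females fewer of the genes passed the test. Of the 41, 7 were higher and 2 were lower, where 17.8% of all genes tested were higher and 23.3% were lower. In this fit of all 37 libraries the shares of the set were thus near or under those of all genes. The genes that were higher were Mki67, Ccna2, Aurkb, Prc1, Cdt1, Ccne2 and E2f1. Those that were lower were Mcm4 and Ccnd1. Of 25 mitotic genes 4 were higher and none was lower, 24 had a positive log2 fold change, and their median was 0.51, against -0.019 for all genes. In 3 genes every Y665F female lay above every WT female (Mki67, Ccna2 and Aurkb) and in 1 below (Ccnd1), against 9.09% and 10.8% of all genes. Of 11 replication genes 1 was higher and 1 was lower, with a median of -0.0036. The libraries of females were shallower than those of males. The test takes its spread from all 37 libraries, Y665H female 3 among them. With only the 12 female libraries of this comparison in the fit 18 of the 41 genes passed. The share of all genes that passed in that smaller fit is not given here, so the 18 cannot be set beside it. What moved the number was not tested.

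Mki67 had the lowest adjusted p of the 41 genes in this comparison. It had 3.89, 4.54 and 6.26 CPM in WT females and 11.3, 17.2 and 17.6 CPM in Y665F females, a 3.32-fold difference (log2 1.73, SE 0.31, edgeR adjusted p = 2.31e-05). All 6 Y665F females were above all 6 WT females. Aurkb, the kinase of the chromosomal passenger complex, had 0.329, 0.585 and 0.676 CPM in WT females and 0.698, 1.25 and 1.52 CPM in Y665F females (log2 1.05, SE 0.35, edgeR adjusted p = 0.0158), without overlap. Ccna2 had 0.583, 0.661 and 1.18 CPM in WT females and 1.28, 1.42 and 2.12 CPM in Y665F females (log2 1.07, SE 0.39, edgeR adjusted p = 0.0266), again without overlap, and its call was lost in 3 of 12 fits that left out 1 library. The call of Prc1 (log2 0.87, edgeR adjusted p = 0.0381) was lost in 7 of those 12 fits. Top2a (0.81, edgeR adjusted p = 0.0562) and Plk1 (0.89, edgeR adjusted p = 0.0584) lay just outside the threshold.

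The replication and G1/S genes of Y665F females moved in other ways. Cdt1 had 3.17, 4.32 and 4.64 CPM in WT females and 4.56, 6.30 and 7.28 CPM in Y665F females (log2 0.55, SE 0.13, edgeR adjusted p = 0.00123). Mcm4 was lower, at 3.46 CPM ± 0.505 (SD, n = 6) in Y665F females where WT females had 4.52 CPM ± 0.677 (SD, n = 6) (log2 -0.38, SE 0.14, edgeR adjusted p = 0.0300), with overlap, and its call was lost in 6 of 12 fits that left out 1 library. Ccnd1, higher in Y665F males, was lower in Y665F females. It had 147, 169 and 253 CPM in WT females and 86.4, 102 and 115 CPM in Y665F females (log2 -0.88, SE 0.20, edgeR adjusted p = 0.000443), and every Y665F female was below every WT female. Ccne2 (0.56, edgeR adjusted p = 0.0310) and E2f1 (0.42, edgeR adjusted p = 0.0146) were higher. Cdkn1a was at 0.42 (SE 0.30, edgeR adjusted p = 0.277). The call of Ccne2, which shares 17.42% of its exon bases with Ints8 on the opposite strand, was lost in 5 of 12 such fits.

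Of the other pathway genes in Y665F females, 7 of 49 mitotic genes were higher (14.3%) and 2 were lower (4.08%), and 7 of 39 replication genes were higher (17.9%) and 6 were lower (15.4%). Of 29 cyclin, kinase, inhibitor and E2F genes, 3 were higher (10.3%) and 9 were lower (31.0%). Over all genes the shares were 17.8% and 23.3%, so the shares of higher mitotic and replication genes were under or near that of all genes. The 3 were Mybl2 (B-MYB, log2 1.74) and the factors E2f7 (1.56) and E2f2 (0.70). Gtse1, a microtubule protein of G2 and mitosis, rose by 1.33, and Spc24, a kinetochore subunit, fell by 0.72. Mcm10 had 48.2 CPM ± 3.29 (SD, n = 6) in WT females and fell to 29.1 CPM ± 2.72 (SD, n = 6). Of 18 other p53 targets 5 were higher (27.8%), with Eda2r at 2.14 and Plk2 at 1.77, and 2 were lower. Of the T and NK cell markers, 11 of 11 were higher, with sums of 5.06 to 7.41 CPM in WT females and 12.7 to 17.6 CPM in Y665F females. B and plasma cell markers were higher in 7 of 7 (6.23 to 10.1 CPM against 13.0 to 26.3 CPM) and macrophage and monocyte markers in 2 of 10 (315 to 488 CPM against 442 to 585 CPM). Their part in the cell cycle values was not tested.

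The Y665F effect was compared between the sexes by an interaction term. For 4 of the 41 genes the effect was higher in males and for 3 it was lower, against 16.1% and 11.5% of all genes tested. Ccnd1 had the largest difference, log2 3.17 (SE 0.28, edgeR adjusted p = 6.48e-11), with Y665F males 4.88-fold above WT males and Y665F females below WT females. The other effects that were higher in males were those of Mcm3 (0.59, edgeR adjusted p = 0.00830), Mcm4 (0.64, edgeR adjusted p = 0.00867) and Cdkn1a (1.07, edgeR adjusted p = 0.0394). Those that were lower in males were the effects of Ccne2 (-0.90, edgeR adjusted p = 0.0120), E2f1 (-0.52, edgeR adjusted p = 0.0307) and Birc5 (-0.90, edgeR adjusted p = 0.0432). The number of calls was 4 without WT female 4 and 2 with the share of items in no gene as a covariate, and it was 11 with only the groups compared. For those fits no shares of all genes are given here. The calls of Cdkn1a and Birc5 were each lost in 14 of 27 fits that left out 1 library. Among the mitotic genes Birc5 was the only call in this comparison, although 24 of 25 differences were positive with a median of 0.51, against 0.036 for all genes. The Mki67 effects, log2 2.49 and 1.73, differed by 0.76 (SE 0.41, edgeR adjusted p = 0.163). Of the macrophage and monocyte markers the Y665F effect was higher in males for 9 of 10, of the stellate cell and fibroblast markers for 7 of 10, of the T and NK cell markers for 4 of 11 (lower for 1) and of the B and plasma cell markers for 2 of 7. Their part in the cell cycle values was not tested. Male and female libraries also differed in depth, so a step of preparation that followed sex cannot be told apart from sex.

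In WT mice, 2 of the 41 genes were higher in males and 5 were higher in females, against 23.0% and 26.8% of all genes tested. Ccnd1 was 11.5-fold lower in males (log2 -3.53, SE 0.22, edgeR adjusted p = 2.83e-15), with all 6 males below all 6 females. Ccne1 was also lower in males (log2 -1.17, SE 0.25, edgeR adjusted p = 0.000264). Mcm2 (-0.36), Cdt1 (-0.32) and Pcna (-0.19) were lower in males, while Rrm2 (0.63) and Birc5 (0.78) were higher. Of 12 fits that left out 1 library, 8 lost the call of Mcm2, 9 that of Pcna and 10 that of Cdt1. With only the 12 WT libraries in the fit, 17 of the 41 genes were called, 14 of them lower in males. For that fit the share of all genes called is not given here. With the share of items in no gene as a covariate 3 were called (Ccnd1, Ccne1 and Rrm2), and Pcna changed sign, to 0.050 (edgeR adjusted p = 0.770). Birc5 had 1.16, 1.49 and 1.70 CPM in WT males and 0.582, 0.872 and 1.07 CPM in WT females, without overlap, and it was the only mitotic gene of 25 that passed in this comparison. All males lay above all females for 1 of the 41 genes (Birc5) and below for 2 (Ccnd1 and Mcm2), against 14.1% and 15.7% of all genes. With Y665F, the levels of Ccnd1 in males (58.4 to 98.2 CPM) came to overlap those of females (86.4 to 115 CPM). Markers of other cell types also differed between the WT sexes. Of the macrophage and monocyte markers 9 of 10 were lower in males, with sums that did not overlap (173 to 261 CPM in WT males, 315 to 488 CPM in WT females). Of the T and NK cell markers 7 of 11 were lower and 1 was higher, of the stellate cell and fibroblast markers 6 of 10 were lower, and of the B and plasma cell markers 3 of 7. Their part in these values was not tested.

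In Y665H males 1 of the 41 genes was higher and 1 was lower, against 5.22% and 3.18% of all genes tested. Cdt1 was higher at log2 0.44 (SE 0.14, edgeR adjusted p = 0.0483), and 9 of 10 fits that left out 1 library lost that call. Birc5 had 0.691, 0.689, 1.03 and 0.563 CPM in the 4 Y665H males, against 1.16 to 1.70 CPM in WT males (log2 -0.97, SE 0.27, edgeR adjusted p = 0.0202). All 4 were below all WT males, and the call was lost in 2 of those 10 fits. With the share of items in no gene as a covariate Birc5 was at log2 -1.07 (edgeR adjusted p = 0.0536) and lost its call, as did Cdt1, and Ccne1 gained one (log2 1.22, edgeR adjusted p = 0.0132). Mki67 had 3.78, 4.05, 3.79 and 5.18 CPM, inside or just above the WT male range of 2.03 to 4.84 CPM (log2 0.45, SE 0.34, edgeR adjusted p = 0.438). Ccnd1 had 19.8, 22.7, 28.7 and 20.2 CPM, all above the WT male range of 13.4 to 17.7 CPM (log2 0.50, edgeR adjusted p = 0.155), without a call. The median log2 fold change was 0.36 for the mitotic genes and 0.24 for the replication genes, against 0.0062 for all genes. One gene lay wholly above WT (Ccnd1) and 1 wholly below (Birc5), against 6.75% and 5.74% of all genes.

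Few other pathway genes passed the test in Y665H males. Of 49 other mitotic genes edgeR called 0, with 4 (8.2%) at an unadjusted p under 0.05, and of 18 other p53 targets it called 0, with 2 (11.1%) at that level, which 23.9% of all genes tested reached. Of 39 other replication genes 3 were higher, among them Chaf1a (0.49), a histone chaperone of the fork. Of 29 cyclin, kinase, inhibitor and E2F genes 3 were higher (Cdkn2c at 0.58, Cdk6 at 0.35 and E2f6 at 0.20), which is 10.3% where 5.22% of all genes were higher, and 10 (34.5%) were at an unadjusted p under 0.05. With only the groups compared in the fit, 5 of the 41 genes were called. Their directions and the share of all genes called in that fit are not given here. The T and NK cell markers summed to 3.07 to 5.79 CPM in Y665H males (3.33 to 5.94 CPM in WT males), and none was higher and 2 were lower. The B and plasma cell markers summed to 4.58 to 6.88 CPM (2.89 to 4.77 CPM in WT males), with 2 of 7 higher, and the macrophage markers to 259 to 354 CPM (173 to 261 CPM), with 1 of 10 higher. Their part in these values was not tested.

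In Y665H females none of the 41 genes was called by edgeR, where 4.40% of all genes tested were higher and 3.10% were lower. At an unadjusted p under 0.05 there were 10 genes (24.4%), 9 of them higher, where 24.7% of all genes tested were at that level. DESeq2 also called 0. All 25 mitotic genes had a positive log2 fold change with a median of 0.63, against 0.0047 for all genes. That direction rested on 1 library. Without Y665H female 3, 13 of 25 mitotic genes were positive, the median was 0.015, edgeR called 0 of the 41, and 2 (4.9%) were at an unadjusted p under 0.05, a level that 21.9% of all genes reached. In that fit 2.83% of all genes tested were higher and 2.21% were lower. The replication median went from 0.11 to -0.044.

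Y665H female 3 was the highest library of its group for 39 of the 41 genes and the highest of all 37 for 22 of 25 mitotic and 8 of 11 replication genes. Mki67 was 17.4 CPM there and 1.42 to 6.70 CPM in the other 5 Y665H females, and WT females had 3.89 to 6.26 CPM. Top2a was 10.1 CPM there, where the highest WT female had 3.78 CPM. Mcm6, a helicase subunit, was 18.0 CPM against 2.73 to 6.34 CPM, and the highest WT female had 5.77 CPM. Averaged over the genes of a class, log2 CPM stood 1.99 above the WT female mean for the mitotic genes and 0.87 above it for the replication genes. The same replication mean was 0.21 to 0.55 above that of WT males in the 9 Y665F males. Its marker sums were the highest of its group for T and NK cells (4.87 CPM), B and plasma cells (11.3 CPM) and macrophages (455 CPM). Its sums for T and NK cells and for macrophages lay below the highest WT female (7.41 and 488 CPM), and that for B and plasma cells above it (10.1 CPM). Its neutrophil and granulocyte precursor sum was the lowest of its group (0.760 CPM). Sums of the other marker lists were highest in other Y665H females. Y665H female 2 stood at the other end, lowest of its group for 24 of the 41 genes, with a mitotic mean 1.18 below that of WT females (log2 -1.18). It was the highest of all 37 libraries for 10.6% of the genes tested, and its marker sums were the lowest of its group for T and NK cells (2.61 CPM), B and plasma cells (3.72 CPM) and macrophages (171 CPM). Of the 12 fits of Y665H females that left out 1 library, 9 called 0 of the 41 genes, those without Y665H female 2 and Y665H female 3 among them. Without Y665H female 6, 4 were higher: Pcna (log2 0.22), Ccnb1 (1.78), Plk1 (0.99) and Cdc20 (1.38). Without WT female 6, Ccnb1 was higher (1.98), and without Y665H female 1, Ccnd1 was lower (-0.83). The part of these cells in the values of either library was not tested. The mitotic mean of the Y665H females thus spanned a wider range than that of any other group of the 6.

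**Figure D4:**
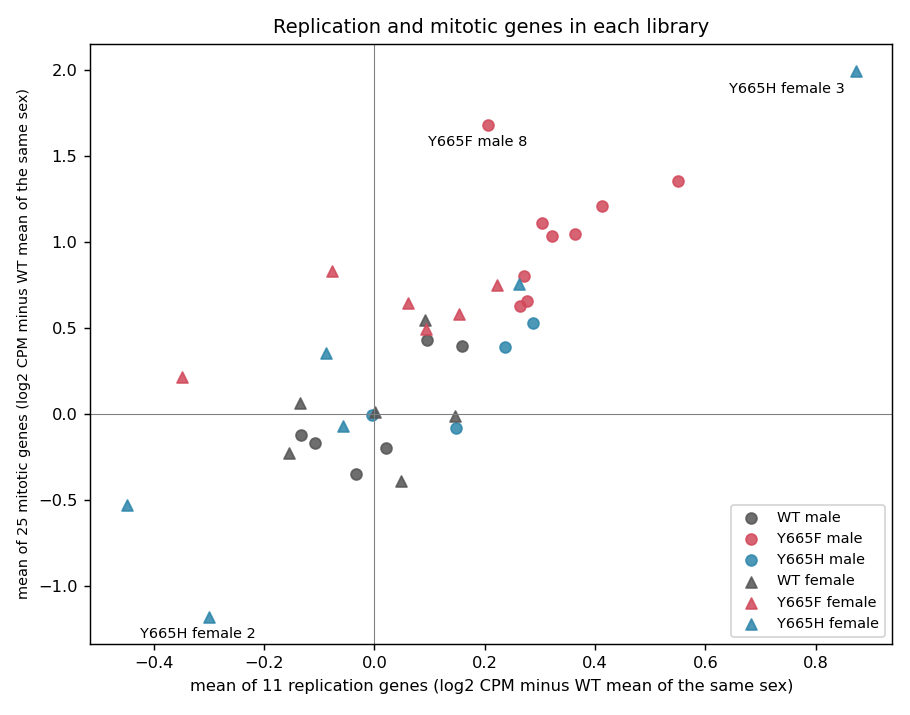
Mean log2 CPM of the 11 replication genes (horizontal axis) and of the 25 mitotic genes (vertical axis) in each of the 37 libraries, both as the difference from the WT mean of the same sex, so that WT libraries scatter around 0. Y665H female 3 lies at the upper right (0.87 and 1.99), Y665F male 8 is high for mitotic genes (1.68) with a replication mean of 0.21, and Y665H female 2 is the lowest for mitotic genes (-1.18).

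Few related genes passed the test in Y665H females, and fewer without Y665H female 3. Of 18 other p53 targets 3 were higher (16.7%), Gdf15 by log2 1.13, Gadd45a by 0.81 and Bbc3 by 0.72. Of 39 other replication genes 3 were higher (7.69%) and 1 was lower (2.56%), among them Gins1 at 0.38 and Gmnn, the inhibitor of Cdt1, at 0.33. Of 49 other mitotic genes 1 was higher (2.04%), Cks2 by 0.46. These shares stand beside the 4.40% and 3.10% of all genes given above. Those of higher p53 targets and higher replication genes lay above 4.40%. Without Y665H female 3, Gdf15 (0.85, edgeR adjusted p = 0.0364), Gadd45a (0.81, edgeR adjusted p = 0.0256) and Gmnn (0.32, edgeR adjusted p = 0.0333) were still higher. Bbc3 (0.58, edgeR adjusted p = 0.106), Gins1 (0.32, edgeR adjusted p = 0.0727) and Cks2 (0.30, edgeR adjusted p = 0.0966) then lost their calls, and the mitotic kinesin gene Kif22 was lower (-0.83, edgeR adjusted p = 0.0145). Of 29 cyclin, kinase, inhibitor and E2F genes edgeR called 0 in either fit, with 4 (13.8%) at an unadjusted p under 0.05. Of the T and NK cell markers none was higher and 3 were lower, with sums of 2.61 to 4.87 CPM, all below the WT female range. The Y665H effect differed between the sexes for Ccnd1 (log2 1.01, SE 0.29, edgeR adjusted p = 0.0360) and Birc5 (-1.44, SE 0.37, edgeR adjusted p = 0.0198), which is 1 gene in each direction against 2.94% and 2.30% of all genes. Of 22 fits that left out 1 library, 9 lost the call of Ccnd1. With only the groups compared none of the 41 was called for this effect, and with counts thinned to the smallest library 4 were. Without Y665H female 3 both calls stood, at 1.02 and -1.06, against 2.55% and 1.82% of all genes, and the median difference of the mitotic genes changed sign, from -0.26 to 0.28.

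Both substitutions were also compared directly. In males, 18 of the 41 genes were lower in Y665H than in Y665F and 1 was higher, against 21.2% and 20.5% of all genes tested. Of the 25 mitotic genes 15 were lower and all 25 differences were negative, with a median of -0.91. In 11 of the 41 genes every Y665H male lay below every Y665F male and in 1, Ccne1, above, against 11.8% and 12.2% of all genes. Mki67 was 4.12-fold lower (log2 -2.04, SE 0.33, edgeR adjusted p = 4.65e-06), with all 4 Y665H males below all 9 Y665F males. Ccnd1 was 3.45-fold lower (log2 -1.79, SE 0.22, edgeR adjusted p = 5.15e-08) and Cdkn1a 2.67-fold lower (log2 -1.42, SE 0.29, edgeR adjusted p = 0.000168). Of the replication genes 1 was lower, Cdc6 (-0.92), and Ccne1 was higher in Y665H (1.36, SE 0.25, edgeR adjusted p = 4.15e-05). The number of calls, 19, was 8 without Y665H male 3 and 9 without Y665H male 1. These comparisons share the Y665F and Y665H libraries with those against WT, so they are not separate evidence. In the same comparison 10 of 11 T and NK cell markers, 7 of 7 B and plasma cell markers and 8 of 10 macrophage markers were lower in Y665H, and their part in the cell cycle values was not tested.

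In females 3 of the 41 genes were higher in Y665H than in Y665F and 3 were lower, against 30.5% and 26.0% of all genes tested. Mki67 was lower (log2 -1.23, SE 0.30, edgeR adjusted p = 0.000630), as were Cdt1 (-0.67, edgeR adjusted p = 6.79e-05) and Ccne2 (-0.70, edgeR adjusted p = 0.00503). Mcm4 (0.42), Pcna (0.30) and Aurka (0.43) were higher. The number of calls was 3 with the share of items in no gene as a covariate and 3 with only the groups compared, and Mcm4, Pcna and Aurka lost their calls in both fits. Without Y665H female 3, 12 genes were lower and 1 was higher (Pcna, 0.19), against 25.5% and 29.6% of all genes. Mcm4 (0.30, edgeR adjusted p = 0.0607) and Aurka (0.25, edgeR adjusted p = 0.157) lost their calls in that fit too. Of the mitotic genes 9 were then lower, with Mki67 at -1.81 (SE 0.25, edgeR adjusted p = 1.94e-07), Aurkb at -1.28, Ccna2 at -1.18 and Nusap1 at -0.83. The mitotic median moved from 0.035 to -0.47 when that library was left out. With all libraries, 11 of 11 T and NK cell markers, 7 of 7 B and plasma cell markers and 9 of 10 macrophage markers were lower in Y665H females than in Y665F females, and their part was not tested.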

How the data were processed

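The authors deposited a table of raw counts per gene symbol for each of 37 liver libraries. Per the submitters' processing notes, the tools were FastQC 0.11.9, Trimmomatic 0.36, STAR, SAMtools 1.9, Picard 2.9.2 and HTSeq 0.9.1 with build mm10. Per the labels' protocols, total RNA of frozen tissue was depleted of ribosomal RNA and made into stranded paired-end libraries. The annotation, the strand setting of the counting and the kit of each library are not given in the sources used here. The 5 rows that name no gene took 32.4% to 49.9% of counted items and were left out.

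Counts were analysed with edgeR 4.0.16 in R 4.3.3: a filter by group (minimum count 10, minimum total 15) that kept 15152 of 24421 genes, TMM scaling, quasi-likelihood fits with 1 mean per group over all 37 libraries, and Benjamini-Hochberg adjustment within each of 9 comparisons at 0.05. CPM are counts scaled by TMM library sizes. SE is the log2 fold change divided by the root of its F statistic. The fit was also run on simulated counts, and the outcome is not given here. DESeq2 1.42.0 was an alternative, and the closing section gives the others. Comparisons against the same WT libraries share them. Replicates differed by more than counting noise, so none was a copy. Members and lists of related genes and cell type markers were chosen with earlier results of these data known. All 41 members may be named, and of each list and comparison with WT the called genes with the largest fold change, up to 3 each way, with a mean of at least 0.5 CPM in a group. Promoter windows came from RefSeq (GRCm38.p6), with exon lengths and overlaps from GENCODE M21.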

Additional observations from a re-analysis of the deposited data

Results flagged for a closer look

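Single libraries lay far from the rest of their group in 34 of 246 combinations of gene and group, over 24 genes. The measure was the gap between the highest or lowest library and its nearest neighbour, as a part of the range of the group, set against Dixon's limit for groups of that size. Chance gives about 1 such gap in 20 groups, and the genes are not independent of each other.

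Of these gaps 18 were held by Y665H female 3, always as the highest value. Its replication genes with such a gap were Mcm5 (0.666), Mcm6 (0.764), Rrm2 (0.661) and Tyms (0.703). Its mitotic genes were Mki67 (0.671), Top2a (0.704), Cdk1 (0.753), Ccna2 (0.694), Ccnb1 (0.733), Ccnb2 (0.703), Foxm1 (0.758), Aurkb (0.727), Birc5 (0.637), Ube2c (0.759), Kif20a (0.718), Cenpf (0.672), Cdca3 (0.737) and Cdca8 (0.670). Cyclin B1 RNA (Ccnb1) was 4.31 CPM in that liver and 0.158 to 1.27 CPM in the other 5. Its library depth, 36510831 counts in genes, was within the range of the other Y665H females. Its share of counted items in the rows that name no gene, 39.2%, was the highest of the 18 female libraries (32.4% to 36.1% in the other Y665H females), and the part of this in its values was not tested.

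Y665F male 8 was the highest of its group by such a gap for 7 mitotic genes, Ccna2 (0.515), Ccnb1 (0.577), Ccnb2 (0.504), Cdc20 (0.679), Kif11 (0.520), Kif20a (0.709) and Cenpf (0.570). For Kif20a it had 3.82 CPM and the other 8 had 1.42 to 2.12 CPM. WT female 6 was the highest WT female for Mki67 (0.654), Ccna2 (0.724) and Ccnb1 (0.636). The remaining gaps were single ones. Mcm6 was high in Y665F male 6 (0.522), Kif23 in Y665F male 2 (0.760), Bub1b in Y665F female 5 (0.629), Cdkn1a in Y665H male 2 (0.833) and Foxm1 in Y665H male 4 (0.855). Cdt1 was low in WT female 3 (0.628).

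The Y665F effect differed between males and females for 7 genes by the interaction term of edgeR, with log2 differences (males minus females) of 3.17 for Ccnd1, 1.07 for Cdkn1a, 0.64 for Mcm4, 0.59 for Mcm3, -0.52 for E2f1, -0.90 for Ccne2 and -0.90 for Birc5. The Y665H effect differed for Ccnd1 (1.01) and Birc5 (-1.44).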

How the results depend on the processing

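The alternatives were DESeq2, RLE scaling, no filter on low counts, a replicate block, a fit of only the groups compared, the share of items in no gene as a covariate, counts thinned to the smallest library, and fits that left out 1 library each. Over all 41 genes in all 9 comparisons, 7436 of 8111 values under these alternatives kept their direction and side of the threshold, 240 lost a call, 119 gained one and 317 changed sign, 60 of them without Y665H female 3. In 21 of the sign changes the new value was larger than its SE or a call was involved, 15 of them without Y665H female 3. Of the 32 genes called in Y665F males, 20 kept their call in every alternative and every fit without 1 library. With the covariate the numbers of called genes were 20 in Y665F males (from 32), 1 in Y665H males (from 2), 3 for Y665H against Y665F in females (from 6), 3 between WT sexes (from 7) and 2 for the Y665F effect between sexes (from 7). Pcna changed sign with the covariate, to -0.14 in Y665H males (edgeR adjusted p = 0.426) and to 0.050 between WT sexes (edgeR adjusted p = 0.770). With only the groups compared the numbers were 18 in Y665F females (from 9), 5 in Y665H males, 3 for Y665H against Y665F in females, 17 between WT sexes, 11 for the Y665F effect and 0 for the Y665H effect between sexes (from 2). Without a filter on low counts 1 gene was called in Y665H males, and with thinned counts 4 differed in the Y665H effect between sexes. The cause of these shifts was not tested. Shares of all genes called are not given for these alternatives, so their numbers cannot be set beside such a share.

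The numbers are those of the sample titles, which differ from the numbers in the deposited file names for 21 of 37 libraries (Y665F males, WT females and Y665H females). Pairing and blocks by the file-name numbers were not tried. The title numbers did not pair the libraries: correlations of same-numbered libraries ran from -0.225 to 0.15, and 0 to 4 libraries of 10 to 15 correlated best with their own number. With the number as a replicate block, 30 genes were called in Y665F males, 6 in Y665F females, 1 in Y665H males, 0 in Y665H females, 7 for Y665H against Y665F in males and 7 in females, 5 for the Y665F effect and 1 for the Y665H effect. That block was set within sex and cannot compare the sexes. A replicate block of numbers shared by both sexes, chosen after seeing the data and fitted on the WT libraries alone, called 17 genes between WT sexes, as many as that fit without the block.

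Without 1 library the numbers ran from 28 to 33 in Y665F males, 6 to 11 in females of that genotype and 0 to 2 in Y665H males (0 without Y665H male 2 or Y665H male 4). In Y665H females they ran from 0 to 4 (4 without Y665H female 6, 1 without WT female 6 or Y665H female 1). For Y665H against Y665F they ran from 8 to 21 in males (8 without Y665H male 3, 9 without Y665H male 1) and from 5 to 13 in females (13 without Y665H female 3). Between WT sexes they ran from 4 to 9 (4 without WT male 2, WT male 4, WT female 4 or WT female 6). They ran from 4 to 8 for the Y665F effect (4 without WT female 4) and from 1 to 2 for the Y665H effect. With counts thinned to the smallest library 29 genes were called in Y665F males, 7 in Y665F females and 13 for Y665H against Y665F in males. The scarce gene Cdc6 had 2 to 45 counts a library.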

Other observations

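Outside the 41 genes, the Y665F effect was higher in males for 6 of 29 other cyclin, kinase, inhibitor and E2F genes (20.7%) and lower for 3 (10.3%), near the 16.1% and 11.5% of all genes. It was higher for 8 of 39 other replication genes (20.5%) and lower for 1 (2.56%), higher for 1 of 49 other mitotic genes (2.04%) and lower for 3 (6.12%), and higher for 2 and lower for 2 of 18 other p53 targets (11.1% each). E2f8, a repressor of E2F target genes, had 13.9 CPM ± 5.86 (SD, n = 6) in WT males and rose to 33.1 CPM ± 10.8 (SD, n = 9) in Y665F males. In females it had 24.1 CPM ± 4.50 (SD, n = 6) in WT and fell to 11.1 CPM ± 0.761 (SD, n = 6) with Y665F. The interaction was log2 2.36 for E2f8 (SE 0.31, edgeR adjusted p = 5.80e-07). Mcm10 fell in both sexes, and more in males (interaction of Mcm10 log2 -1.35, SE 0.16, edgeR adjusted p = 4.82e-08). Mybl2, which encodes the mitotic activator B-MYB, had 0.318 CPM ± 0.0807 (SD, n = 6) in WT females and rose to 1.08 CPM ± 0.320 (SD, n = 6), and its interaction was -1.44 (SE 0.29, edgeR adjusted p = 0.000259). Plk2, a p53 target kinase, had an interaction of -1.19 (SE 0.20, edgeR adjusted p = 1.95e-05), with log2 1.77 in Y665F females. These 4 genes were picked from the named ones after their values were seen.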
